A study of Mus musculus with 9 samples.

Results

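Complement genes encode a cascade of serum and tissue proteins that tags cells and immune complexes for removal. In the classical pathway C1q, assembled from the products of C1qa, C1qb and C1qc, recognizes its target and activates the proteases C1r and C1s, which cleave C4 and C2. In the alternative pathway factor B, the product of Cfb, takes the place of C2, and both routes lead to the cleavage of C3, whose fragment C3a is read by the receptor C3ar1. Most plasma complement is made in the liver, C1q is known as a product of macrophages and dendritic cells, and C3, C4, C1r and C1s are also made by fibroblasts and endothelium. The expression of 9 of these genes, C1qa, C1qb, C1qc, C1s, C2, C4b, C3, Cfb and C3ar1, was examined in mouse mammary tumors. They were taken by gene symbol from the 22609 genes listed in the count tables, and all 9 were among the 13366 genes that passed the filter on low counts.

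The tumors were grown from 4T1 cells, a mouse mammary carcinoma line labelled as triple-negative breast cancer (TNBC), in BALB/c mice. All mice received 500000 cells in the mammary fat pad after 6 weeks on their diet. The low-fat diet (LFD) group was fed 10 kcal% fat and the high-fat diet (HFD) group 60 kcal% fat, both without EC359. The study names vehicle as the control for EC359 in this model and does not state its composition there. It gives 0.3% hydroxy propyl cellulose as the vehicle of its xenografts in SCID mice. Whether the LFD group received vehicle is not stated. The HFD + EC359 group was fed the high-fat diet and given EC359, an inhibitor of the leukemia inhibitory factor receptor (LIFR), at 5 mg/kg by the intraperitoneal route on 5 days per week. Each group had 3 libraries of stranded, paired-end mRNA sequencing, and the design held no group given EC359 on the low-fat diet. The labels give no age of the mice and do not state that the libraries of a group came from separate mice, so that p-values measure the spread between these libraries, which may in part be technical. The model is a single cell line, and a tumor holds host cells beside the injected line.

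The 3 libraries of a group held 5085357 to 6509130 counts with LFD, 7314704 to 7922852 with HFD and 8043649 to 9751201 with HFD + EC359. The limit that a count of 0 allows, 3 counts, was 0.308 to 0.59 CPM (counts scaled to a library of 1000000 counts), for counting error only. Library 1 of the LFD group stood apart from the other libraries of its group, with a mean chi-square per gene of 3.1 and 2.54 against them, while the other pairs within groups had 1.36 to 1.57. Values with and without that library are given where it matters. The keratins Krt8 and Krt18 of the carcinoma epithelium were abundant, with mean CPM of 599.3, 408.4 and 442.5 for Krt8 in the LFD, HFD and HFD + EC359 groups, whereas Epcam was low, at 7.39, 1.37 and 5.06. Of the genes whose protein defines TNBC by its absence, Erbb2 was at 106.9, 77.4 and 74.9 CPM, Esr1 at 6.81, 12.7 and 8.53 CPM, and Pgr had at most 11 counts in any library. The 6 hepatocyte markers together reached at most 1.23 CPM and the 5 B cell markers at most 2.18 CPM in a library.

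The questions were how the transcripts of complement genes differ between tumors on the high-fat and the low-fat diet, and how they differ between tumors with and without LIFR inhibition on the high-fat diet. C1qc was higher with HFD and C1qa and C1qb were not called, though all 3 were called as higher once the trend with GC content was removed, and the 3 genes were higher with EC359 than with HFD alone. C1s, C2, C4b and Cfb were higher with HFD and lower with EC359 than with HFD alone. C3 was higher with HFD, and C3ar1 was higher with HFD and higher again with EC359. In bulk tumors a change in the number of cells that make a transcript and a change in transcript per cell cannot be told apart. A gene counts as called here where the quasi-likelihood test of edgeR gave a p under 0.05 after Benjamini-Hochberg adjustment across the 13366 genes. For HFD against LFD 7 of the 9 genes were called, all higher, where 51.8% of all tested genes were called, 26% as higher and 25.8% as lower. For HFD + EC359 against HFD 8 of 9 were called, 4 higher and 4 lower, where 26.6% of all tested genes were called, 12.7% as higher and 13.9% as lower. For HFD + EC359 against LFD 7 of 9 were called, all higher, where 58.3% of all tested genes were called, 29.2% as higher and 29.1% as lower. The median log2 fold change of the 9 genes was 0.57, -0.09 and 0.32 in the 3 comparisons, beside 0.01, 0.01 and 0.01 over all tested genes. The comparisons share libraries, since HFD enters the first and the second, HFD + EC359 the second and the third, and LFD the first and the third.

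**Figure D1:**
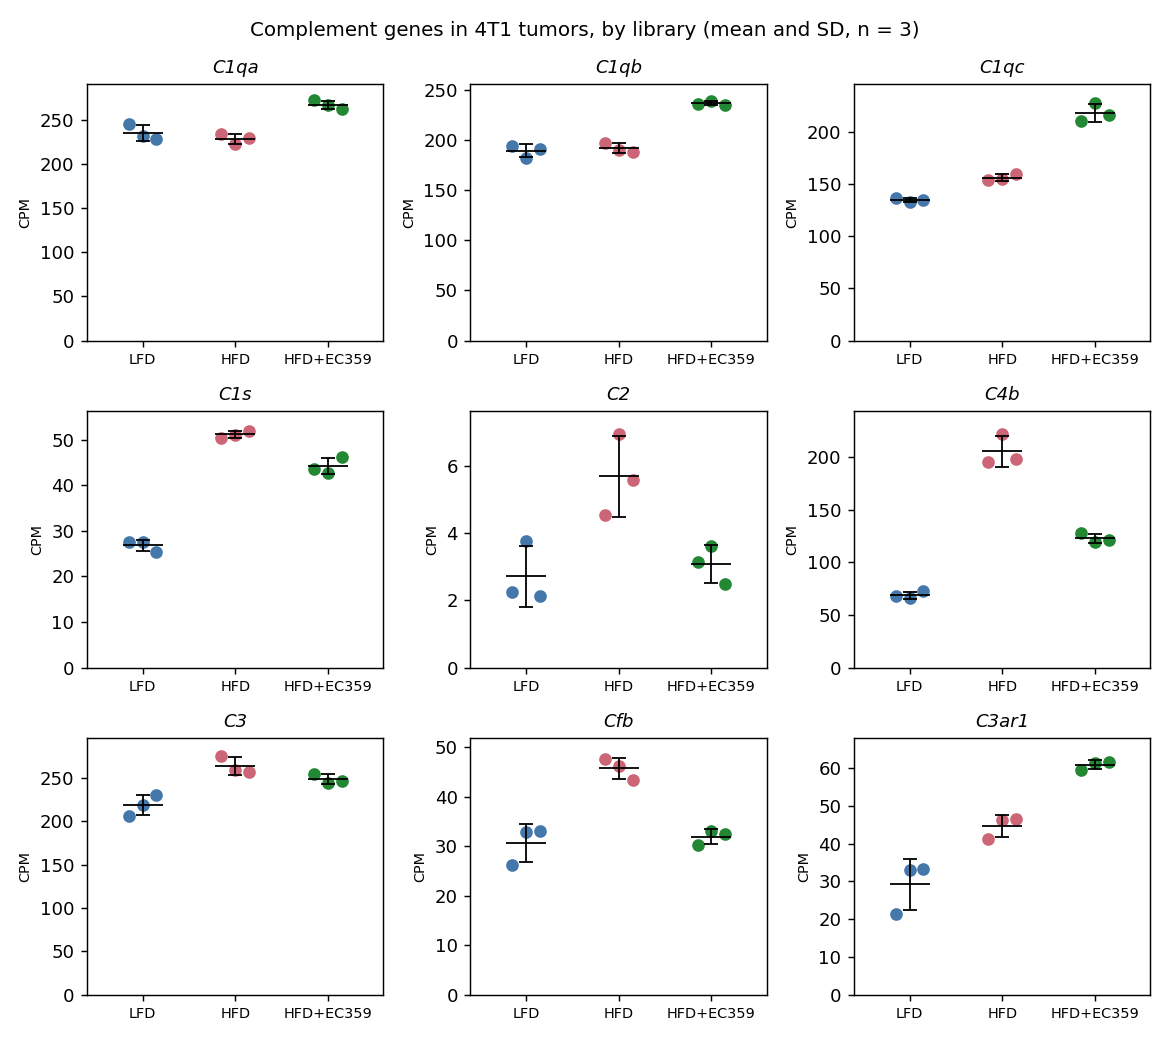
Expression of the 9 complement genes in each of the 9 libraries, as CPM scaled by the trimmed mean of M-values (TMM), with the mean and SD of each group (n = 3). C1qa, C1qb, C1qc and C3ar1 were highest in the HFD + EC359 libraries, and C1s, C2, C3, C4b and Cfb were highest in the HFD libraries.

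At a stricter threshold, a fold change over 2 with an adjusted p under 0.01, C2 and C4b passed for HFD against LFD, where 5.71% of all tested genes passed. C4b alone remained when LFD library 1, LFD library 3 or HFD library 2 was left out. No complement gene of the 9 passed this threshold for HFD + EC359 against HFD by edgeR or DESeq2, where 3.43% of all tested genes passed, although all 9 had an unadjusted p under 0.05, and C2 passed when HFD library 1 or HFD + EC359 library 2 was left out. For HFD + EC359 against LFD C3ar1 passed, where 5.09% of all tested genes passed, and none did without LFD library 1. The ranges of the groups did not overlap for 7, 9 and 7 of the 9 genes in the 3 comparisons, where 57.1%, 41.3% and 62.9% of all tested genes did not overlap.

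The C1q genes lie side by side on the minus strand of mouse chromosome 4, each with 3 exons, and in the mm9 build of the files C1qb is at chr4:136436061-136442092, C1qc at chr4:136445717-136448829 and C1qa at chr4:136451831-136454759. C2 and Cfb are also neighbors, 87 bases apart, at chr17:34999547-35019045 and chr17:34993319-34999459, and C4b lies on the same chromosome at chr17:34865326-34880842. C3 is at chr17:57343396-57367559, C1s at chr6:124480362-124492377 and C3ar1 at chr6:122797158-122806175. The exons of none of the 9 genes overlapped those of another annotated gene on either strand. RefSeq start sites on the GRCm38.p6 build matched 5 of the 9 genes, C1qb, C1qc, C1s (as C1s1), C3 and C3ar1, and those of C1qa, C2, C4b and Cfb were not used here. The 250 bases before the start site, on the minus strand for each of the 5, are shown because the neighbors C1qb and C1qc were higher with EC359 while C1s was lower, and because C3ar1, the receptor for a C3 fragment, was higher with EC359 while C3 was not called. The windows are chr4:136886201-136886450 for C1qb, chr4:136892915-136893164 for C1qc, chr6:124542360-124542609 for the first of 2 C1s start sites, chr17:57228137-57228386 for C3 and chr6:122856158-122856407 for C3ar1. Capitals mark a match to a motif on either strand.
C1qb: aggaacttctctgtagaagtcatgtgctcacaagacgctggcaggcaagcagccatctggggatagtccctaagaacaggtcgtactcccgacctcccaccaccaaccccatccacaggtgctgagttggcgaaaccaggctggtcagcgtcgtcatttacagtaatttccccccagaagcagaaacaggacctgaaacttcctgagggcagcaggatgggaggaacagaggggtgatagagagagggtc
C1qc: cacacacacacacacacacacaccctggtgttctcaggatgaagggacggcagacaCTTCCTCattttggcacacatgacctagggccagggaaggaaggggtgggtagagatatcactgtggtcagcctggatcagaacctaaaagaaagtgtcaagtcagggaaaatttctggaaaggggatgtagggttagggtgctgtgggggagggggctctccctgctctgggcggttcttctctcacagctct
C1s: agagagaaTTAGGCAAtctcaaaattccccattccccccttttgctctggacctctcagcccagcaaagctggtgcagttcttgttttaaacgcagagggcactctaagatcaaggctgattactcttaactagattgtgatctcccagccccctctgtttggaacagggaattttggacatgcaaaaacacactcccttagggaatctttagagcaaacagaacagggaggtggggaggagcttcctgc
C3: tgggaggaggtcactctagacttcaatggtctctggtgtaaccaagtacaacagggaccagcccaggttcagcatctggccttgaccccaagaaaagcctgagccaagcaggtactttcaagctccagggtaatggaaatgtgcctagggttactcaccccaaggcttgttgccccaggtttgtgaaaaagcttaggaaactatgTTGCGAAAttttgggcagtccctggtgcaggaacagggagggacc
C3ar1: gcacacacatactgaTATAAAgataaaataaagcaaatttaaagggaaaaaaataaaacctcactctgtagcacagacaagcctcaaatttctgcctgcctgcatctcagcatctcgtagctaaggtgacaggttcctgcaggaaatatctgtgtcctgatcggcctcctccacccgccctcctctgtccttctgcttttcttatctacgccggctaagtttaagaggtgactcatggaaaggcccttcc

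The motifs searched were TTCNNNGAA for STAT factors, which LIFR signals through, TTGCNNAA for C/EBP factors, the letters of the interferon-stimulated response element, GAGGAAG for the myeloid factor PU.1, and TATAAA for the TATA box. C1qc held a PU.1 match at -194 to -188 from the start site, a motif found in 10.6% of 32851 windows of this length. C/EBP matches stood at -242 to -235 in C1s and at -45 to -38 in C3, with a share of 9.56% over all windows, while the window of the second C1s start site, chr6:124542322-124542571, held no match. C3ar1 held TATAAA at -235 to -230, which 12.4% of the windows hold. The STAT letters, found in 7.02% of the windows, and the interferon element, found in 2.98%, were in none of these 5 windows, and C1qb held no match to any of the 5 motifs. No 2 matches overlapped. These matches describe the letters and are not sites of binding.

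C1qa, the A chain of C1q, was at 246.1, 232 and 228.8 CPM in LFD libraries 1 to 3, at 234.2, 223.2 and 229.4 CPM in the HFD libraries and at 272.4, 266.6 and 262.6 CPM in the HFD + EC359 libraries. The LFD and HFD libraries overlapped, and every HFD + EC359 library was above all 6 of them. The log2 fold change was -0.04 ± 0.0417 (SE) for HFD against LFD (edgeR, adjusted p = 0.44), with a 95% interval from -0.12 to 0.04. With EC359 C1qa rose by 0.22 ± 0.0396 on the log2 scale over HFD (edgeR, adjusted p = 5.34e-05), a fold change of 1.17, and it stood 0.18 ± 0.0407 above LFD (edgeR, adjusted p = 0.000273).

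C1qb, the B chain, was at 194.6, 182.6 and 191.6 CPM with LFD, at 197.5, 190.2 and 188.4 CPM with HFD and at 236.2, 239.1 and 235.6 CPM with HFD + EC359. Its pattern was like that of C1qa, with LFD and HFD overlapping and the 3 HFD + EC359 libraries above. The log2 fold change was 0.02 ± 0.043 for HFD against LFD (edgeR, adjusted p = 0.711), with an interval from -0.07 to 0.11, and 0.30 ± 0.0402 for HFD + EC359 against HFD (edgeR, adjusted p = 4.54e-07). Against LFD the HFD + EC359 libraries were higher by 0.32 ± 0.0417 (edgeR, adjusted p = 5.41e-08).

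C1qc, the C chain, was at 136.7, 133.1 and 135 CPM with LFD, at 153.8, 154.7 and 160 CPM with HFD and at 210.7, 227.9 and 216.8 CPM with HFD + EC359. The 3 groups did not overlap and stood in the order LFD, HFD, HFD + EC359. C1qc rose by 0.21 ± 0.0468 with HFD (edgeR, adjusted p = 0.000313) and by a further 0.48 ± 0.0422 with EC359 (edgeR, adjusted p = 5.7e-11), which made 0.70 ± 0.0448 against LFD (edgeR, adjusted p = 1.08e-14), a fold change of 1.62. The count of C1qc per count of C1qa was 0.555, 0.574 and 0.59 with LFD, 0.657, 0.693 and 0.698 with HFD and 0.773, 0.855 and 0.826 with HFD + EC359. The chains of C1q thus stood in different count ratios in the 3 groups, with no overlap for C1qc per C1qa. The ratio of C1qb to C1qa moved less, with means of 0.805 ± 0.0282, 0.839 ± 0.016 and 0.887 ± 0.0174 (SD, n = 3). An exact permutation test of 3 against 3 libraries cannot give a p below 0.1, and the ratios were not tested.

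The 3 C1q genes are rich in GC, with 59.3%, 57.5% and 58.2% of exon bases in C1qa, C1qb and C1qc against a median of 50.8% over the tested genes. When the trend of each library with GC content and length was removed before the edgeR fit, all 3 were called as higher with HFD, by 0.22 for C1qa (adjusted p = 1.39e-05), 0.24 for C1qb (adjusted p = 4.49e-06) and 0.45 for C1qc (adjusted p = 1.12e-10). The direction of C1qa also turned with library totals alone, to 0.003 (adjusted p = 0.957), and that of C1qb without LFD library 2, to -0.01 (adjusted p = 0.85). Against LFD the rise with HFD + EC359 became 0.45, 0.52 and 0.92 with the trend removed, in place of 0.18, 0.32 and 0.70. The rise with EC359 over HFD was nearly the same with the trend removed, at 0.23, 0.28 and 0.47.

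**Figure D2:**
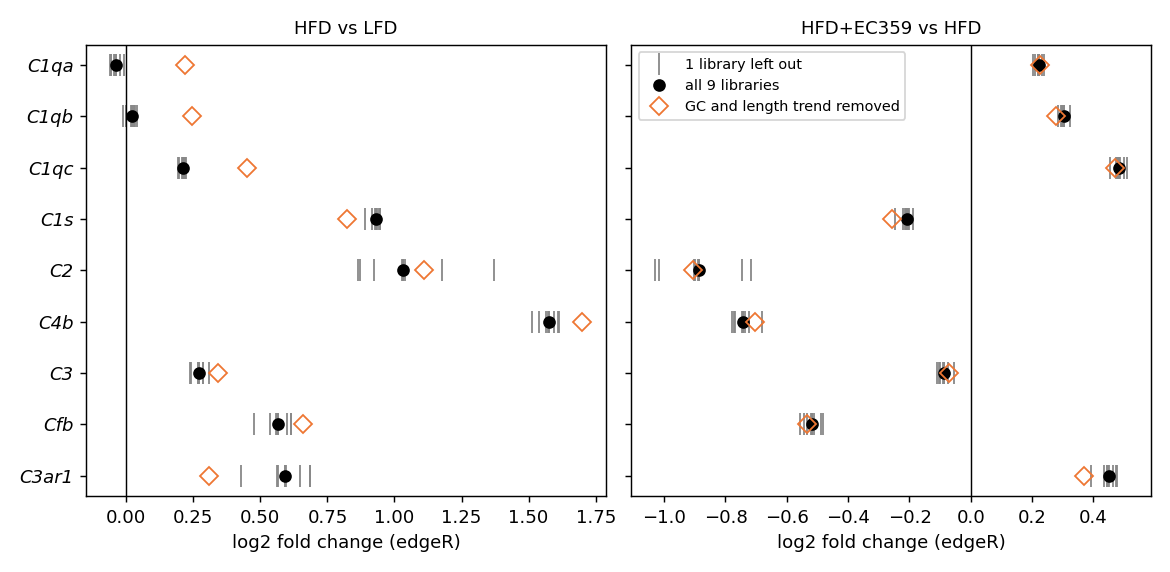
Log2 fold changes of the 9 genes for HFD against LFD (left) and HFD + EC359 against HFD (right), from all 9 libraries (filled circles), with 1 library left out at a time (vertical ticks) and after removal of the GC and length trend (open diamonds). For HFD against LFD the diamonds of C1qa, C1qb and C1qc lie at 0.22, 0.24 and 0.45, to the right of the circles, and that of C3ar1 at 0.31, to the left of its circle.

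C1s, the protease of the C1 complex that cleaves C4 and C2, was at 27.6, 27.5 and 25.4 CPM with LFD, at 50.4, 51.1 and 51.8 CPM with HFD and at 43.5, 42.8 and 46.1 CPM with HFD + EC359. The groups did not overlap, and the HFD + EC359 libraries lay between the other two groups and nearer to HFD. C1s rose by 0.93 ± 0.0836 on the log2 scale with HFD (edgeR, adjusted p = 5.11e-11), a fold change of 1.9. It fell by 0.21 ± 0.071 with EC359 (edgeR, adjusted p = 0.0265) and stayed 0.72 ± 0.0837 above LFD (edgeR, adjusted p = 6.89e-09). The call with EC359 was lost with library totals alone (adjusted p = 0.0624), with DESeq2 (adjusted p = 0.0766), and when any HFD library or HFD + EC359 library 1 or 2 was left out (edgeR, adjusted p from 0.0545 to 0.108).

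C2, the protease component that pairs with C4b in the classical C3 convertase, was the least abundant of the 9, with 11 to 53 counts per library. It was at 2.25, 3.77 and 2.12 CPM with LFD, at 4.54, 6.94 and 5.59 CPM with HFD and at 3.15, 3.61 and 2.5 CPM with HFD + EC359. Every HFD library was above all others, and the LFD and HFD + EC359 libraries overlapped. C2 rose by 1.03 ± 0.265 with HFD (edgeR, adjusted p = 0.00152) and fell by 0.89 ± 0.231 with EC359 (edgeR, adjusted p = 0.00397), and the second call was lost without HFD library 2 (log2 fold change -0.72, adjusted p = 0.0517). The difference between HFD + EC359 and LFD was 0.15 ± 0.291 (edgeR, adjusted p = 0.687), with an interval from -0.45 to 0.74.

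C4b, which encodes complement C4, had the largest change of the 9 with HFD. It was at 67.7, 66.2 and 72.6 CPM with LFD, at 195.2, 222 and 197.9 CPM with HFD and at 127.8, 119.2 and 121 CPM with HFD + EC359. The 3 groups were far apart, with the lowest HFD library above the highest HFD + EC359 library and the lowest HFD + EC359 library above the highest LFD library. C4b rose by 1.57 ± 0.0571 with HFD (edgeR, adjusted p = 3.62e-21), a fold change of 2.98. With EC359 it fell by 0.74 ± 0.0488 (edgeR, adjusted p = 5.07e-14), to 0.83 ± 0.0594 above LFD (edgeR, adjusted p = 1.27e-13). C4b shares sequence with C4a on the same chromosome, and 8.24% of the 150-base windows in the exons of C4b also occur in C4a. The deposited counts of C4a are whole numbers in all 9 libraries, and so are those of C4b in the LFD libraries. In the HFD and HFD + EC359 libraries C4b had 1054 to 1695 counts, which were rounded to whole counts here, so that a deposited fraction was not read. How reads of the shared windows were assigned was not tested. C4a moved in the same directions, by 1.22 and -0.59, and the mean ratio of C4b to C4a counts was 7.18 ± 1.16, 8.93 ± 0.999 and 8.04 ± 0.528 (SD, n = 3).

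C3, on which all complement routes converge, was at 206.6, 218.7 and 230 CPM with LFD, at 275.8, 259 and 257.2 CPM with HFD and at 254.7, 244.4 and 247 CPM with HFD + EC359. The LFD libraries were the lowest, and each HFD library was above each HFD + EC359 library, by a narrow margin. C3 rose by 0.27 ± 0.0438 with HFD (edgeR, adjusted p = 4.16e-06), a fold change of 1.21. With EC359 the log2 fold change was -0.09 ± 0.0415 (edgeR, adjusted p = 0.126), with a 95% interval from -0.17 to -0.002. This difference was called when the fit held only the 6 libraries of the comparison (adjusted p = 0.0333) and without LFD library 1 (adjusted p = 0.0407), and it was -0.05 without HFD library 1. C3 remained 0.19 ± 0.0435 above LFD with HFD + EC359 (edgeR, adjusted p = 0.000496).

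Cfb, factor B of the alternative pathway, was at 26.2, 32.8 and 33 CPM with LFD, at 47.5, 46.1 and 43.3 CPM with HFD and at 30.2, 33.1 and 32.4 CPM with HFD + EC359. The HFD libraries stood above all others, and the LFD and HFD + EC359 libraries overlapped. Cfb rose by 0.57 ± 0.0909 with HFD (edgeR, adjusted p = 3.98e-06) and fell by 0.52 ± 0.0834 with EC359 (edgeR, adjusted p = 1.24e-05). The difference between HFD + EC359 and LFD was 0.05 ± 0.0937 (edgeR, adjusted p = 0.675), with an interval from -0.14 to 0.24.

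C3ar1, the receptor for C3a, was at 21.3, 33 and 33.3 CPM with LFD, at 41.2, 46.2 and 46.5 CPM with HFD and at 59.5, 61.4 and 61.7 CPM with HFD + EC359. The groups did not overlap and stood in the same order as those of C1qc, and LFD library 1 lay well below the other LFD libraries. C3ar1 rose by 0.59 ± 0.103 with HFD (edgeR, adjusted p = 1.4e-05) and by a further 0.45 ± 0.0859 with EC359 (edgeR, adjusted p = 0.00014), to 1.04 ± 0.0975 above LFD (edgeR, adjusted p = 6.8e-11). C3ar1 is poor in GC, with 43% of exon bases. With the GC and length trend removed the rise with HFD was 0.31 (adjusted p = 0.00816) and that against LFD 0.68 (adjusted p = 5.28e-08). Without LFD library 1 the rise with HFD was 0.43.

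**Figure D3:**
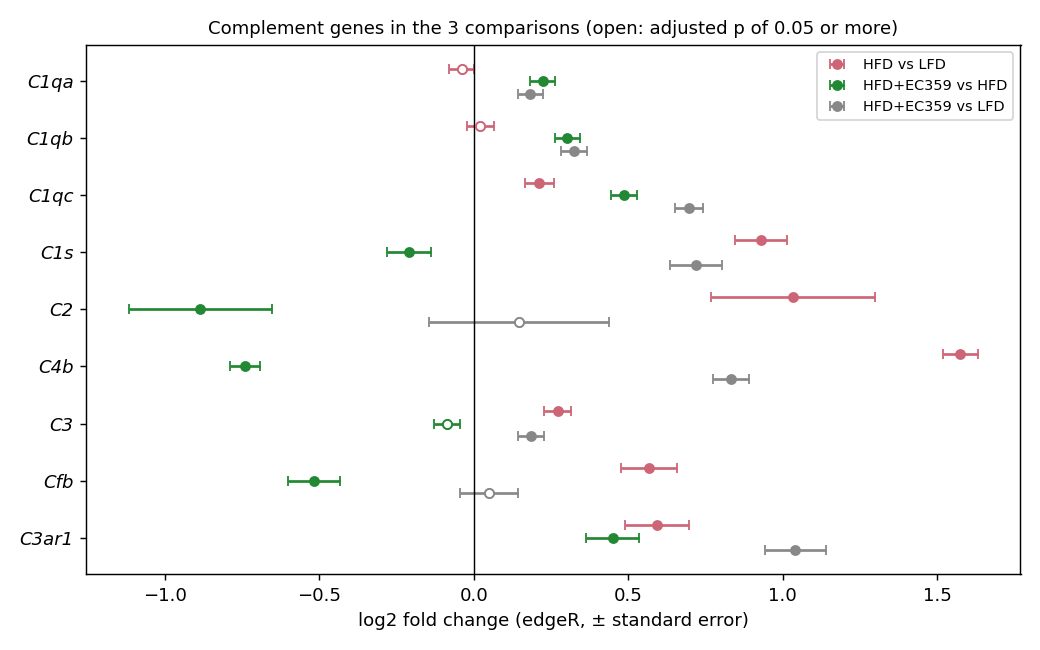
Log2 fold change with its standard error (edgeR) of each of the 9 complement genes in the 3 comparisons between groups. Open circles mark an adjusted p of 0.05 or more, and C1s, C2, C4b and Cfb lie right of 0 for HFD against LFD and left of 0 for HFD + EC359 against HFD.

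Levels were compared between genes as FPKM, which divides the CPM of a gene by its exon length in kilobases. With LFD the mean FPKM was 217.8 ± 8.53 for C1qa, 178.7 ± 5.88 for C1qb, 128 ± 1.68 for C1qc and 42.6 ± 2.28 for C3 (SD, n = 3), and these 4 genes did not overlap. C4b at 12.8 ± 0.618, Cfb at 11.2 ± 1.41, C1s at 8.99 ± 0.42 and C3ar1 at 6.79 ± 1.59 followed, and C2 was last at 1.02 ± 0.347. With HFD the order changed below C3, with C4b at 38 ± 2.74, C1s at 17.1 ± 0.226, Cfb at 16.6 ± 0.777, C3ar1 at 10.4 ± 0.688 and C2 at 2.15 ± 0.456. C1s and Cfb overlapped there. With HFD + EC359 the 3 C1q genes were at 247 ± 4.58, 223.3 ± 1.79 and 207.3 ± 8.3, and C3ar1 at 14.2 ± 0.269 overlapped with C1s at 14.8 ± 0.583. The summed CPM of the 9 genes was 929 to 951.7 with LFD, 1180 to 1200 with HFD and 1225 to 1238 with HFD + EC359.

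Markers of macrophages, a known source of C1q, were read beside the C1q genes. Of 10 macrophage markers 8 were called as higher and 2, Mrc1 and Cd163, as lower with HFD, and with EC359 8 were called as higher and 1, Lyve1, as lower, where 51.8% and 26.6% of all tested genes were called. None of the 10 was at or below 3 counts in every library. The mean log2 CPM of the markers was 5.31 to 5.43 with LFD, 5.99 to 6.07 with HFD and 6.2 to 6.29 with HFD + EC359. The mean log2 CPM of C1qa, C1qb and C1qc less that of the markers was 2.23, 2.05 and 2.19 in the LFD libraries, 1.54, 1.56 and 1.51 in the HFD libraries and 1.68, 1.73 and 1.6 in the HFD + EC359 libraries. By this measure the C1q genes stood lower relative to the markers on the high-fat diet in every library, with or without EC359. Each marker counts equally here, and Lyve1 and Cx3cr1 moved most of the 10. Their log2 fold changes were 3.23 and 1.79 for HFD against LFD and 2.21 and 2.34 for HFD + EC359 against LFD (edgeR). Lyve1 had only 2 to 7 counts in the LFD libraries. The summed CPM of the markers, in which the abundant Mrc1, Csf1r and Cd163 weigh most, was 1269 to 1338 with LFD, 1246 to 1273 with HFD and 1544 to 1584 with HFD + EC359. The log2 ratio of mean C1q CPM to mean marker CPM was 0.46 to 0.60 with LFD, 0.60 to 0.64 with HFD and 0.59 to 0.66 with HFD + EC359, so that the lower standing on the high-fat diet was not seen on this scale. The part of macrophages in the C1q values was not tested.

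**Figure D4:**
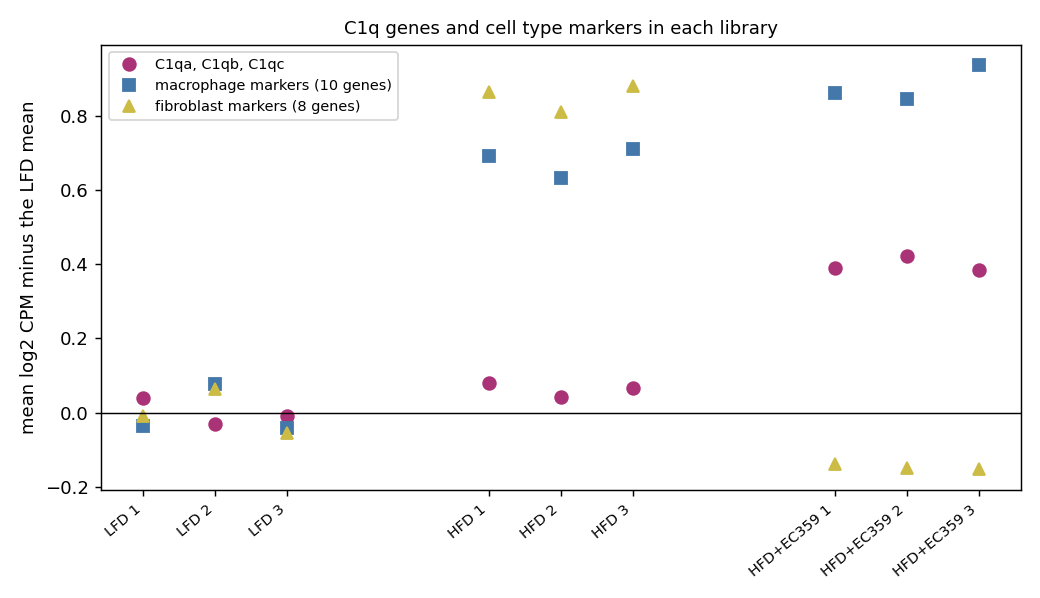
Mean log2 CPM of C1qa, C1qb and C1qc (circles), of 10 macrophage markers (squares) and of 8 fibroblast markers (triangles) in each library, less the mean of the LFD libraries. The macrophage markers are above the C1q genes in all HFD and HFD + EC359 libraries. The mean of the fibroblast markers is high in the HFD libraries and below 0 in the HFD + EC359 libraries. For HFD + EC359 against LFD 3 of these 8 markers, the collagen genes, were called as lower and 3 as higher, where 58.3% of all tested genes were called.

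Markers of other cell types also moved between the groups. All 8 fibroblast markers were called as higher with HFD, and with EC359 5 were called as lower, among them the collagen genes Col1a1, Col1a2 and Col3a1, and 1, Pdgfra, as higher. The mean log2 CPM of the fibroblast markers was 7.35 to 7.47 with LFD, 8.22 to 8.29 with HFD and 7.25 to 7.27 with HFD + EC359. Their summed CPM, in which the collagen genes weigh most, was 7758 to 9224, 13510 to 14260 and 3979 to 4086. For HFD + EC359 against LFD the 3 collagen genes were called as lower and Dcn, Pdgfra and Pdgfrb as higher, and Lum and Dpt were not called. All 6 endothelial markers were called as higher with HFD and 4 as lower with EC359, with summed CPM of 177 to 186.3, 337.7 to 362.9 and 281.9 to 292.7. Of 5 skeletal muscle markers 3 (60%) were called with HFD, all higher, a share near that of all tested genes. With EC359 3 were called as lower. Their summed CPM was 88.4 to 95.2, 109.5 to 121.4 and 64.9 to 69.4. The summed CPM of each of these 3 lists was highest in the HFD libraries, as was the CPM of C1s, C2, C3, C4b and Cfb. Not every marker followed its sum. In the LFD, HFD and HFD + EC359 groups mean CPM was 41.2, 38.2 and 31.1 for Acta1, and 1.7, 2.41 and 2.55 for Mylpf, both of muscle. It was 322.6, 374.8 and 475.8 for the fibroblast marker Pdgfra. Of 6 tested neutrophil markers 3 (50%) were called with HFD, all higher, a share near that of all tested genes. With EC359 4 were called as higher and 1, Ngp, as lower. The summed CPM of the 7 neutrophil markers found in the count tables was 101.9 to 123, 136.4 to 148.4 and 166.4 to 173.7. Of 6 epidermis markers 4 were called as lower and 1 as higher with HFD and 5 as higher with EC359, with summed CPM of 1090 to 1259, 174.3 to 188.4 and 511.4 to 517.3. The summed CPM of the 5 carcinoma epithelium markers, in which Krt8 and Krt18 weigh most, was also lowest in the HFD libraries, at 1114 to 1136, 704.7 to 714.3 and 763 to 790.6. Krt19, which was below the filter, had mean CPM of 1.07, 1.07 and 0.612 and was not lowest there. The 7 adipocyte markers had summed CPM of 9.82 to 11.8, 23.2 to 27.4 and 24.9 to 29.2, lowest with LFD. Fabp4 weighs most in this sum, with mean CPM of 6.21, 20 and 19.4, while Lep had 0.262, 0.173 and 0.487. Of 4 tested adipocyte markers only Fabp4 (25%) was called with HFD, beside 51.8% of all tested genes, and none with EC359, beside 26.6%. For HFD + EC359 against LFD 3 (75%) were called as higher, beside 58.3%. The 6 T cell markers found in the count tables had summed CPM of 10 to 13.6, 8.25 to 9.81 and 13.1 to 15.3. The hepatocyte markers, of the main source of plasma complement, had at most 3 counts in every library for 5 of 6 genes. The part of any of these cell types in the complement values was not tested.

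A wider list of complement genes, ordered by role, held 62 symbols, of which 54 were found in the count tables and 33, the 9 genes included, were tested. For HFD against LFD 21 of the 33 (63.6%) were called, 19 higher and 2 lower, beside 51.8% of all tested genes. For HFD + EC359 against HFD 19 (57.6%) were called, 11 higher and 8 lower, beside 26.6%, and for HFD + EC359 against LFD 22 (66.7%) were called, 21 higher and 1 lower, beside 58.3%. Past the stricter threshold were 7 (21.2%), 1 (3.03%) and 4 (12.1%) of the 33 genes in the 3 comparisons, beside 5.71%, 3.43% and 5.09% of all tested genes.

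In the classical and lectin pathway 7 of 13 tested genes (53.8%) were called with HFD, all higher, close to the 51.8% of all tested genes, and 9 (69.2%) with EC359, 5 higher and 4 lower, beside 26.6%. C1ra, the protease that activates C1s, rose by 0.71 ± 0.105 with HFD (edgeR, adjusted p = 1.06e-06) and had 0.17 ± 0.0882 with EC359 (edgeR, adjusted p = 0.167). Of the 150-base windows in its exons 25.95% also occur in C1rb, and the counts of these genes were whole numbers in all 9 libraries. C4a fell with EC359 by 0.59 ± 0.108 (edgeR, adjusted p = 7.38e-05). Fcna, a ficolin that starts the lectin pathway, was at -0.03 with HFD and rose by 0.51 ± 0.0748 with EC359 (edgeR, adjusted p = 2.21e-06). Masp1, a protease of the lectin pathway, was at -0.18 with HFD (edgeR, adjusted p = 0.078), which became -0.28 (adjusted p = 0.00409) without LFD library 1, and rose by 0.38 ± 0.0796 with EC359 (edgeR, adjusted p = 0.000439). Colec12, a scavenger receptor of the collectin family, rose by 0.61 ± 0.0942 with HFD (edgeR, adjusted p = 1.88e-06) and had -0.03 with EC359. C1rb and Masp2 were called in none of the 3 comparisons, although without LFD library 2 C1rb was called as higher with HFD, by 0.71 (edgeR, adjusted p = 0.0488) in place of 0.21.

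In the alternative pathway all 4 genes were called as higher with HFD, beside 26% of all tested genes. Cfd, the protease factor D that cleaves factor B, rose by 1.16 ± 0.294 (edgeR, adjusted p = 0.00133) and Cfp, properdin, rose by 0.16 ± 0.0654 (edgeR, adjusted p = 0.039). The call of Cfp was lost with DESeq2 (adjusted p = 0.106) and when LFD library 1 or 2 or HFD library 1 or 3 was left out (edgeR, adjusted p from 0.0547 to 0.139). With EC359 Cfb was the 1 of the 4 (25%) that was called, close to the 26.6% of all tested genes, and Cfd stood at -0.48 (edgeR, adjusted p = 0.137). In the terminal pathway C6, a component of the membrane attack complex, was at 0.818, 1.41 and 1.23 CPM with LFD, at 11.1, 8.91 and 10.1 CPM with HFD and at 19.2, 15.2 and 17.4 CPM with HFD + EC359. It had the largest rise of the wider list, by 3.07 ± 0.259 with HFD (edgeR, adjusted p = 1.22e-11) and by a further 0.78 ± 0.13 with EC359 (edgeR, adjusted p = 2.03e-05), from 4 to 9 counts in the LFD libraries. Hc, the gene of C5, was tested and not called.

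Of 6 tested regulators 5 (83.3%) were called with HFD, 4 higher and 1 lower, and 3 (50%) with EC359, 1 higher and 2 lower, beside 51.8% and 26.6% of all tested genes. Serping1, the C1 inhibitor that binds C1r and C1s, was at 15.8, 14.9 and 19.4 CPM with LFD, at 38.2, 42 and 37.6 CPM with HFD and at 18.7, 19.6 and 18.5 CPM with HFD + EC359. It rose by 1.24 ± 0.105 with HFD (edgeR, adjusted p = 1.5e-11) and fell by 1.05 ± 0.0932 with EC359 (edgeR, adjusted p = 8.1e-11), and was the 1 gene of the wider list past the stricter threshold with EC359. Cd55, a brake on the convertases, rose with HFD by 1.23 ± 0.451 (edgeR, adjusted p = 0.0225), and Cr1l, a membrane regulator, by 0.37 ± 0.0978 (edgeR, adjusted p = 0.00178), and both calls were lost with the GC and length trend removed. Cd55 had 12, 3 and 4 counts in the LFD libraries, and library 1, at 2.46 CPM, overlapped the HFD libraries at 2.36 to 3.27 CPM. Its rise was 2.17 (edgeR, adjusted p = 0.000459) without LFD library 1, and its call was lost without LFD library 2, at 0.80 (adjusted p = 0.161), LFD library 3, at 0.98 (adjusted p = 0.107), or HFD library 3 (adjusted p = 0.0904). Clu, clusterin, fell by 0.17 ± 0.0429 with HFD (edgeR, adjusted p = 0.00113) and rose by 0.12 ± 0.0412 with EC359 (edgeR, adjusted p = 0.0287), and the first value became 0.01 with the trend removed. The second call was lost with DESeq2 (adjusted p = 0.0915) and without HFD library 2 or 3 or HFD + EC359 library 2 or 3 (edgeR, adjusted p from 0.0788 to 0.136). Cd46 was called as higher for HFD + EC359 against LFD, by 1.15 ± 0.274 (edgeR, adjusted p = 0.000592), which became 0.63 (adjusted p = 0.0612) with the trend removed.

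**Figure D5:**
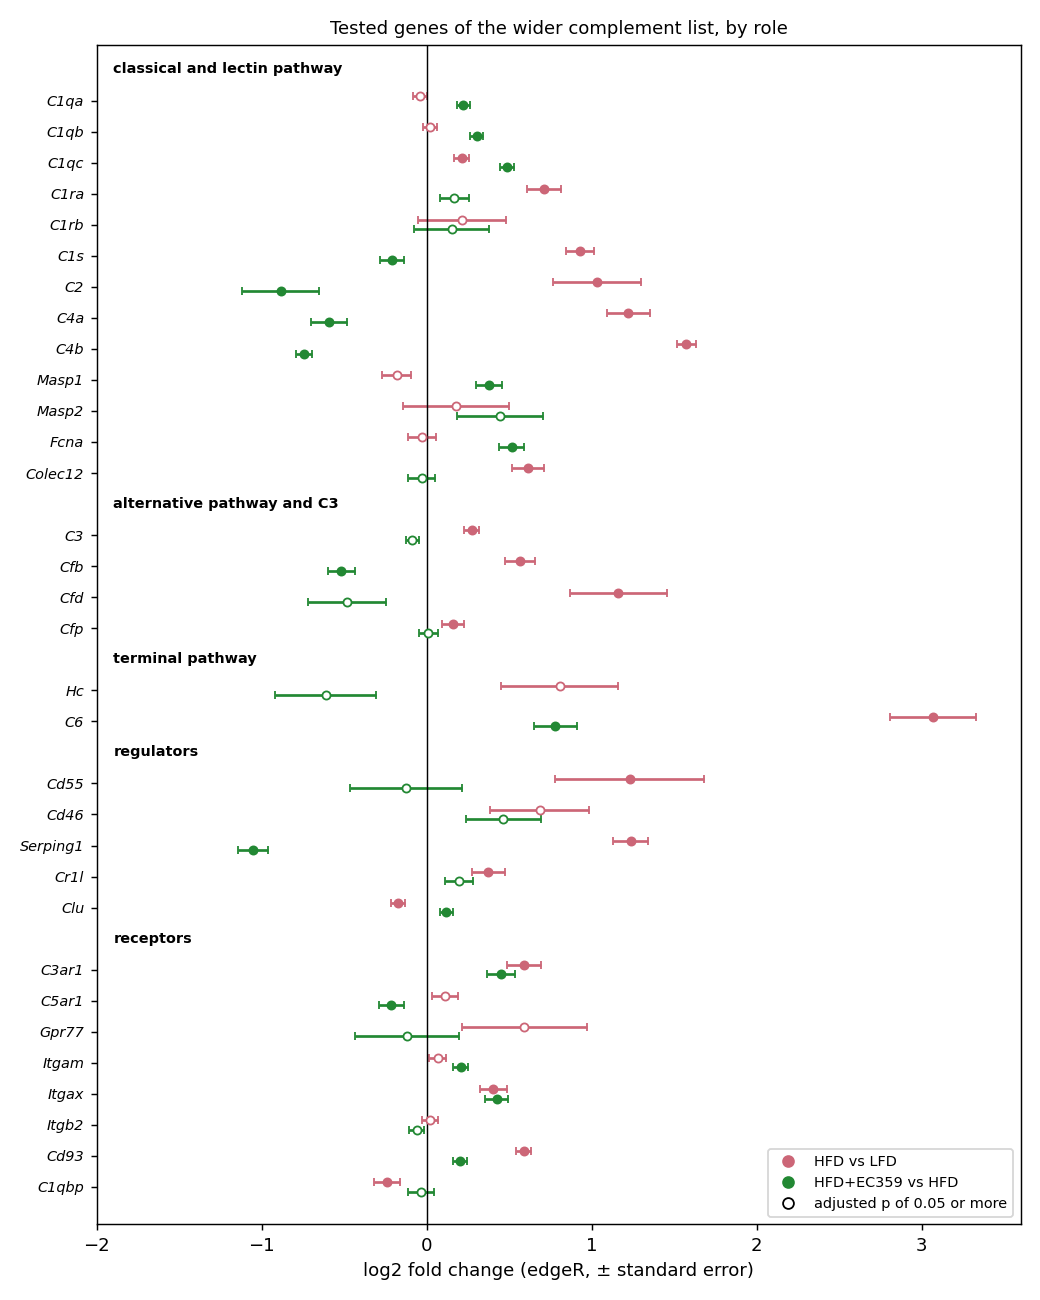
Log2 fold change with its standard error (edgeR) of the tested complement genes that are reported here, grouped by role, for HFD against LFD and HFD + EC359 against HFD, with open circles for an adjusted p of 0.05 or more. C6 is farthest right with HFD at 3.07, and Serping1 farthest left with EC359 at -1.05.

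Of 8 tested receptor genes 4 (50%) were called with HFD, 3 higher and 1 lower, a share near the 51.8% of all tested genes, and 5 (62.5%) with EC359, 4 higher and 1 lower, beside 26.6%. Itgax, an integrin chain of complement receptor 4, rose by 0.40 ± 0.0808 with HFD (edgeR, adjusted p = 8.92e-05) and by 0.42 ± 0.0687 with EC359 (edgeR, adjusted p = 1.32e-05). Cd93, a C1q-receptor-like protein of myeloid cells and endothelium, rose by 0.59 ± 0.0454 (edgeR, adjusted p = 1.58e-12) and by 0.20 ± 0.0412 (edgeR, adjusted p = 0.000314). Itgam, a chain of complement receptor 3, was at 0.07 with HFD and rose by 0.21 ± 0.0452 with EC359 (edgeR, adjusted p = 0.000682). C5ar1, the receptor for C5a, fell with EC359, by 0.22 ± 0.0762 (edgeR, adjusted p = 0.0338), a call lost with DESeq2 (adjusted p = 0.0756), with library totals alone (adjusted p = 0.0738) and without HFD library 1 or 3 or any HFD + EC359 library (edgeR, adjusted p from 0.0624 to 0.207). C1qbp, a mitochondrial protein that binds C1q, fell by 0.24 ± 0.0809 with HFD (edgeR, adjusted p = 0.0132), and this call was lost with the trend removed and without LFD library 1 or HFD library 1 or 3 (edgeR, adjusted p from 0.053 to 0.0807). Gpr77 and Itgb2 were not called. Genes below the filter, with at most 10 counts in any library, included Mbl1, Mbl2, Fcnb, Colec10, Colec11, C8a, C8b, C8g, C9, Cfi, C4bp, Cd59a, Cd59b, Vtn, Susd4, Cpn1, Cpn2, Cr2 and Vsig4.

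The genes most like each complement gene across the 9 libraries were found by the root mean square difference of log2 CPM, each gene centred on its own mean, among 13357 tested genes, the 9 complement genes left out. C1qa was nearest to Prex1 with a difference of 0.0235, followed by Abcc3 and Mavs, C1qb to Tns4 with 0.0353, followed by Etnk1 and Eps8, and C1qc to Tle2 with 0.0357, followed by Tnfrsf21 and Cst3. C1s was nearest to Mmd with 0.0632, followed by Rbms3 and Ccl9, C2 to Hoxb5 with 0.194, followed by Dapk1 and Adam12, and C4b to Lef1 with 0.151, followed by Fndc1 and Slc7a11. C3 was nearest to Depdc5 with 0.0278, followed by Rab22a and Slmap, Cfb to Tnfrsf19 with 0.0564, followed by Errfi1 and Dysf, and C3ar1 to Pilra with 0.0515, followed by Ccr1 and Rps27l. The differences for C2 and C4b were the widest in log2 units, and so was the spread of these genes themselves about their means, with a root mean square of 0.516 and 0.644. The 9 libraries fall into 3 groups, and a likeness across them includes that of the group means.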

How the data were processed

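Total RNA of 4T1 tumors, with 3 libraries per group, was sequenced on stranded mRNA libraries with paired reads of 150 bases. The deposited values are expected counts per gene, not normalized. Per the file headers the authors made them with featureCounts 1.5.0-p1 on mm9 gene models, for reverse-stranded pairs, with multi-mapping and overlapping reads split into fractions. The submitters' processing notes name HISAT2 2.1.0, while the study's methods name TopHat2 and HTSeq. Of the genes in a library 1.19% to 3.55% held a fraction, and the counts were rounded to whole numbers.

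Of 22609 listed genes 13366 passed edgeR's filterByExpr by group. Libraries were scaled with TMM factors, and 1 quasi-likelihood fit of the 3 groups (edgeR 4.0.16, limma 3.58.1, R 4.3.3) gave the 3 comparisons, with Benjamini-Hochberg adjustment over all tested genes. The fit was tested on simulated data. Log2 CPM used a prior count of 2. DESeq2 1.42.0, other scalings, other filters, the 6 libraries of a comparison alone, a replicate block, an offset for GC content and length by splines of 5 degrees of freedom in each library, and each library left out were the alternatives. The ratio of mean CPM of C1q genes and macrophage markers was added after seeing the data. The genes named are the 9 complement genes, the tested genes of a wider complement list with a call in at least 1 comparison, the genes of that list below the filter, the genes of that list that were tested and not called, and the 3 genes most like each of the 9. Some genes of the wider list stand in its counts and are not reported here by name. Marker lists are given by counts and ranges with a few members named. The 9 genes and all lists were chosen with earlier results of these data known. The lists took Emr1 for Adgre1 and Gpr77 for C5ar2, the symbols of mm9. Promoter windows came from RefSeq on GRCm38.p6, another build than that of the counts, and gene positions from the mm9 gene models of the count files.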

Additional observations from a re-analysis of the deposited data

How the results depend on the processing

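Over 17 alternatives, 20 of the 27 results for single complement genes (9 genes in 3 comparisons) kept direction and call in each. For HFD against LFD, C1qa turned from -0.04 to 0.00314 with library totals alone and to 0.22 with the GC and length trend removed, and C1qb from 0.02 to -0.0122 without LFD library 2, in a range up to 0.0388 with 1 library left out. For HFD + EC359 against LFD, C2 turned from 0.15 to -0.0162 without LFD library 3, in a range up to 0.482, and Cfb from 0.05 to -0.0429 without LFD library 1, in a range up to 0.0978, where neither was called. The other changes of call, for C1qb, C1s, C2 and C3, stand beside their results, and their cause was not tested. With 1 library left out at a time, the complement genes past the stricter threshold numbered 1 to 2 for HFD against LFD, 0 to 1 for HFD + EC359 against HFD and 0 to 1 for HFD + EC359 against LFD, and the last was 0 with the GC and length trend removed. All genes past that threshold fell from 763 to 356, from 459 to 211 and from 680 to 418 where at least 10 counts in every library were required, which leaves fewer genes tested, and from 680 to 417 for HFD + EC359 against LFD with the GC and length trend removed. The mean C1q level relative to the macrophage markers was 2.15, 1.54 and 1.67 as a difference of mean log2 CPM and 0.51, 0.61 and 0.63 as the log2 ratio of mean CPM, an alternative chosen after seeing the data, so the order of LFD and HFD turned.

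The replicate numbers of the labels did not pair the libraries, with correlations of deviations from -0.0297 to 0.017 between libraries of the same number. With the replicate number as a block, 7, 8 and 7 complement genes were called, as without it, and 6944, 3550 and 7773 genes in all, against 6925, 3549 and 7787. C2, with 11 to 53 counts per library, had the widest standard errors of the 9 genes, and depth limits it most.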
